A study of Homo sapiens with 30 samples.

Results

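The transcripts described here are those of 9 genes whose proteins build processing bodies or remove messenger RNA in the cytoplasm: DCP1A, DCP2, EDC3, EDC4, DDX6, XRN1, LSM14A, PATL1 and CNOT1. They were taken by gene symbol from a count table of 60664 genes, by a rule that uses no measured value, and all 9 were found. Processing bodies are membraneless assemblies of RNA and protein that hold mRNAs withdrawn from translation together with the enzymes that degrade them. An mRNA usually loses its poly(A) tail to the CCR4-NOT complex, is then relieved of its 5′ cap, and is digested from that end by an exonuclease. Stress granules form when stress blocks translation, and they touch, and share proteins with, processing bodies. The measurements are of the RNAs that encode these proteins, in a cytosol extract and in a stress granule pull-down. They say nothing of where the proteins were.

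The cells were derivatives of Flp-In T-REx HEK293, an established human embryonic kidney line with a tetracycline-inducible transgene. The FT293-GFP-TIA1aWT line carries GFP fused to the wild-type RNA-binding protein TIA1a, and the FT293-GFP-TIA1aWDM line carries the same fusion with the mutation of Welander distal myopathy, a muscle disease. They are called WT and WDM below, and the series asks how that mutation alters processing bodies and stress granules under oxidative stress. Cytosol RNA came from 6 groups: each line untreated, with tetracycline, and with tetracycline followed by 0.5 mM sodium arsenite for 60 min. Granule RNA came from 4 groups: each line with tetracycline, without or with arsenite. Each group had 3 libraries, 30 in all, and every granule sample comes from cells that had received tetracycline. The granule fraction is the high-speed pellet of a cell lysate, purified with beads that bind GFP, so in unstressed cells it is whatever TIA1a-containing material that procedure brings down. The labels do not say whether either line is a clone, nor that replicates are separate cultures, so the p-values measure only the spread between these libraries, which may be technical. The cells are not muscle.

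Libraries held 5906167 to 27419145 counts. TIA1 itself had 3 counts over all libraries and at most 1 in any, so tetracycline induction of the transgene could not be checked in this table. The reason for so low a count was not tested, and it is not read here as the level of TIA1 RNA. Levels are given in CPM, which scales the counts of each library to the same total. Of 6 epithelial markers, KRT8, KRT18, KRT19 and EPCAM had means of 50.9 to 105 CPM, CDH1 had 6.85 CPM and CLDN6 stayed under 1 CPM. The 4 blood markers were under 1 CPM in every library, and the muscle marker ACTA1 averaged 1.19 CPM. In tetracycline-treated cytosol the library numbered 1 was the highest of its group in each line for several of the 9 genes. How far a pair of libraries differed over the whole table was measured as chi-square per degree of freedom. In WT, number 1 stood apart (23.93 and 24.21, against 2.805 between numbers 2 and 3). In WDM, number 2 stood apart (15.79 and 14.42, against 6.991 between numbers 1 and 3). Libraries numbered 1 also had more of 3 nuclear RNAs (NEAT1, MALAT1 and KCNQ1OT1 summed) than the others of their groups. This sum was 508 CPM against 211 and 202 in WT, and 649 against 329 and 556 in WDM. RMRP and RN7SK were at 0 counts. Over all libraries the sum was 202 to 860 CPM in cytosol and 2243 to 3566 CPM in granules. The part of nuclear RNA in the results was not tested. The arsenite results in cytosol are given with and without the tetracycline libraries numbered 1. Without them no call among the 9 changed for tetracycline against untreated cytosol (14.1% of all genes called in WT and 7.17% in WDM) or between the lines in tetracycline cytosol (17.7% called). Uncalled values moved there, that of EDC3 with tetracycline in WT from 0.28 to -0.02 on the log2 scale. The excess of PATL1 in WT granules over cytosol with tetracycline went from 0.98 to 1.39, called both times. In bulk RNA of this kind, fewer cells of a type and less RNA per cell cannot be told apart.

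The 9 genes lie on 6 chromosomes (GRCh38). DCP1A (ENSG00000272886, chromosome 3, 53283429 to 53347586, minus strand) encodes the partner that activates the decapping enzyme. DCP2 (ENSG00000172795, chromosome 5, 112976702 to 113022195, plus strand) encodes that enzyme, which cuts the cap. EDC3 (ENSG00000179151, chromosome 15, 74630558 to 74696292, minus strand) and EDC4 (ENSG00000038358, chromosome 16, 67873052 to 67884499, plus strand) encode scaffolds that stimulate decapping. PATL1 (ENSG00000166889, chromosome 11, 59636716 to 59669037, minus strand) encodes a scaffold between deadenylation and decapping. DDX6 (ENSG00000110367, chromosome 11, 118747763 to 118791164, minus strand) encodes an RNA helicase that represses translation, and LSM14A (ENSG00000257103, chromosome 19, 34172504 to 34229288, plus strand) its RNA-binding partner. XRN1 (ENSG00000114127, chromosome 3, 142306607 to 142448062, minus strand) encodes the exonuclease that digests decapped RNA. CNOT1 (ENSG00000125107, chromosome 16, 58519951 to 58629885, minus strand) encodes the scaffold of the CCR4-NOT deadenylase.

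The transcripts differ in length and make-up. Canonical transcripts (GENCODE release 44) run from 3431 bases for LSM14A to 10110 for DCP2, against a median of 2885 over all coding genes. The 3′ UTR takes 86.2% of DCP2 but only 7.36% of EDC4 and 12.0% of CNOT1. TIA1 is known to bind U-rich RNA, so the 30-base window of the 3′ UTR with the most U is shown for 4 genes, a pair whose granule level rose with arsenite in both lines (DCP2 and CNOT1) and a pair whose level was not called in either (DDX6 and EDC4). They are printed 5′ to 3′ as DNA letters of the transcript strand, with runs of at least 5 T in capitals. Only that strand was searched, and 75.6% of all 3′ UTRs of coding genes hold such a run. The DCP2 window lies at chr5:113015340-113015369 on the plus strand, the CNOT1 window at chr16:58520504-58520533 on the minus strand, the DDX6 window at chr11:118749352-118749381 on the minus strand and the EDC4 window at chr16:67884426-67884455 on the plus strand, all in GRCh38.
DCP2: TTTTTTaTTTTTTTggtatgtgTTTTTTTT
CNOT1: tttgaatattatgtaacttaTTTTTTTaat
DDX6: TTTTTTTTTTTTTTTTTTTTTTTctttctt
EDC4: TTTTTacctctaatttggatcTTTTTgttt
The DDX6 window holds 28 T, more than those of the other 8 genes, and 1.73% of all 3′ UTRs have a window with as many. DCP2 has 24 (10.5% of 3′ UTRs have as many), EDC4 has 19 (45.6%) and CNOT1 has 18 (56.0%), the fewest of the 9. Of the genes not shown, the window held 20 T in DCP1A, 21 in EDC3, 22 in XRN1 and in LSM14A, and 19 in PATL1. A relation between these windows and the arsenite change in granules was not tested. A window is a description of sequence and not a binding site.

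Per kilobase of canonical transcript, LSM14A had the highest level of the 9 in all 6 cytosol groups and PATL1 the lowest in all 10 groups. In untreated WT cytosol LSM14A had 69.6 CPM per kb and PATL1 2.73. CNOT1 (42.6 CPM per kb), DDX6 (40.6) and DCP2 (34.5) followed LSM14A there, with SDs of 2.57, 2.81 and 1.46 (n = 3), so that CNOT1 and DDX6 did not differ beyond their spread. EDC4 (15.0), EDC3 (9.66), XRN1 (8.44) and DCP1A (7.13) came next. In granules the order differed at the top, in WT already without arsenite. There CNOT1 had 66.4 CPM per kb (SD 6.91) and LSM14A 58.5 (SD 3.15). In WDM granules without arsenite LSM14A (67.4) and CNOT1 (64.4) did not differ beyond the spread of CNOT1 (SD 6.23). In arsenite granules CNOT1 led with 123 CPM per kb in WT and 111 in WDM. DCP2 (80.4) and LSM14A (71.8) followed it in WT, and LSM14A (82.8) and DCP2 (68.7) in WDM. DCP2 and LSM14A did not differ beyond the spread of DCP2 in WT, where its SD was 21.0 CPM per kb. Counts per library ran from 85 for PATL1 to 28339 for CNOT1, so PATL1 carries the most counting error.

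**Figure D1:**
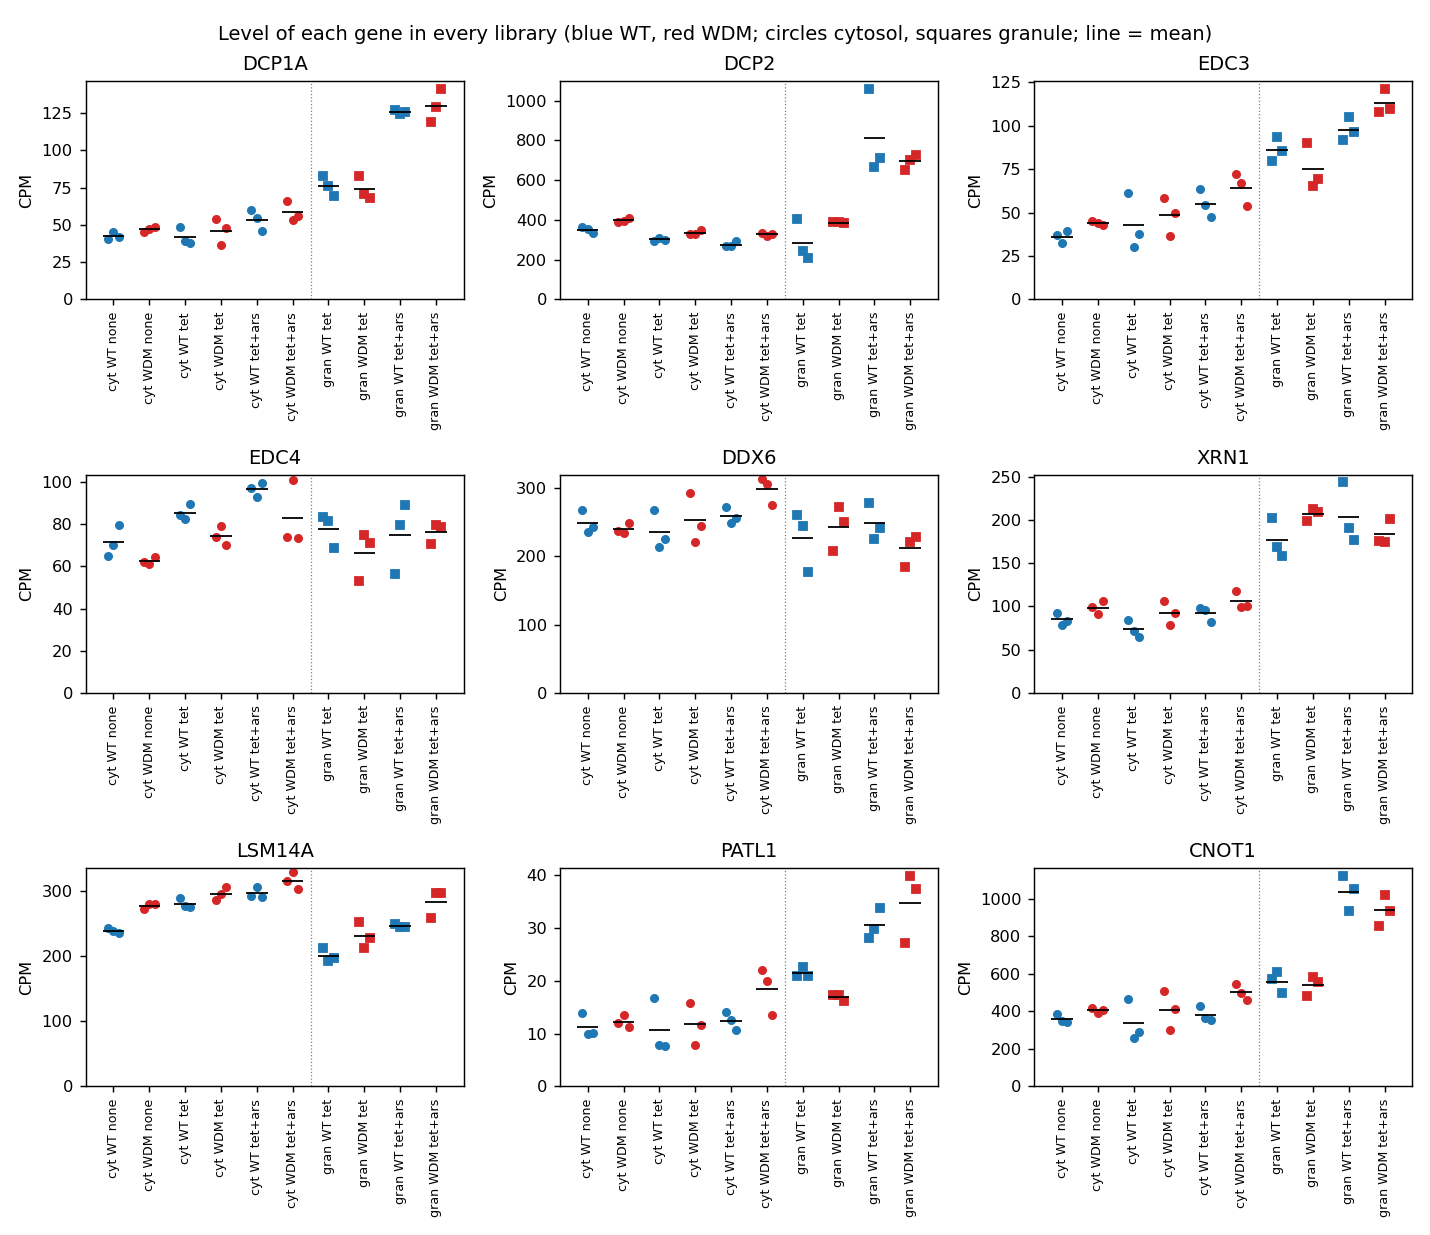
Level of each of the 9 genes in CPM (vertical axis, from 0) in every library of the 10 groups (horizontal axis), with the group mean as a line. Blue is WT, red WDM, circles cytosol and squares granule. DCP1A, DCP2, PATL1 and CNOT1 are highest in the granule groups with arsenite, while EDC4 and DDX6 stay between 53.2 and 101 CPM and between 176 and 313 CPM over all libraries.

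Arsenite's effect on the granule fraction was tested against granules from cells with tetracycline alone. In WT granules 4 of the 9 transcripts rose (DCP1A, DCP2, PATL1 and CNOT1) and none fell. In WDM granules 5 rose (the same 4 and EDC3), and again none fell. The test was edgeR's quasi-likelihood F-test, p-values were adjusted by Benjamini and Hochberg's method over every gene in the fit, and a call means an adjusted p below 0.05. Of 18366 genes, 30.6% were called in WT (16.5% higher) and 36.3% in WDM (18.7% higher). The median log2 fold change of the 9 was 0.32 in WT and 0.54 in WDM, against -0.03 and 0.01 over all genes. The libraries of the 2 treatments did not overlap for 5 of the 9 in WT and 6 in WDM, as for 40.8% and 46.0% of all genes.

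DCP2, the decapping enzyme, rose most in WT. Its granule level was 406, 245 and 207 CPM with tetracycline alone and 1057, 668 and 713 CPM with arsenite in WT. Every arsenite library lay above every library without arsenite, although the libraries numbered 1 were the highest of both groups and the first of them had the fewest counts of the series. The log2 fold change was 1.55 (SE 0.223, adjusted edgeR p 1.99e-05), a fold of 2.92, and it ranged from 1.25 to 1.87 when a library was left out. Of all genes tested, 98.8% had a lower fold change. In WDM the level went from 389, 388 and 382 CPM to 653, 700.4 and 729 CPM, with no overlap and little spread, which gave log2 0.78 (SE 0.219, adjusted edgeR p 0.00653). The responses of the lines differed by -0.76 on the log2 scale (SE 0.309), which was not called (adjusted edgeR p 0.318). No gene of 18366 was called for that difference by edgeR, 0.0% of those tested, and 2329 had an unadjusted p under 0.05.

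DCP1A, the partner of DCP2, rose by nearly the same amount in both lines. In WT its granule level went from 82.6, 76.0 and 69.2 CPM to 127, 125 and 126 CPM. In WDM it went from 82.5, 70.5 and 68.1 CPM to 119, 129 and 141 CPM. The groups were far apart in each line, and the log2 fold changes were 0.75 (SE 0.150) and 0.76 (SE 0.150), with adjusted edgeR p 0.000553 and 0.000323. Neither call was lost when a library was left out.

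Among the scaffolds of decapping, EDC3 rose in WDM and was not called in WT. It went from 90.1, 65.1 and 69.4 CPM to 108, 121 and 109 CPM there (log2 0.54, SE 0.150, adjusted edgeR p 0.00651). In WT it had 79.6, 93.4 and 85.4 CPM without and 92.0, 105 and 96.6 CPM with arsenite, groups that overlapped (log2 0.20, SE 0.150). The difference between the lines was 0.34 (SE 0.212) and was not called. Reads of EDC3 are uncertain in part, because 13.8% of its exon length lies opposite CLK3 and how strand was handled in counting is not given in the sources used here. EDC4 had log2 fold changes of -0.05 (SE 0.172) in WT and 0.13 (SE 0.172) in WDM, with overlapping groups in both lines.

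PATL1 rose from 21.0, 22.7 and 21.0 CPM to 28.0, 29.8 and 33.8 CPM in WT granules. In WDM granules it rose from 17.4, 17.4 and 16.2 CPM to 27.1, 39.8 and 37.3 CPM. The groups did not overlap in either line. The log2 fold change in WT was 0.52 (SE 0.177, adjusted edgeR p 0.0277), and the call was lost in 4 of the 6 fits that left out a library (adjusted p up to 0.123), those without replicate 1 or 3 of either WT group. In WDM it was 0.98 (SE 0.178, adjusted edgeR p 0.000132) and was called in all 6 such fits.

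CNOT1, the deadenylase scaffold, had 571, 609 and 495 CPM in WT granules without arsenite and 1121, 935 and 1052 CPM with it. In WDM granules it had 483, 585 and 557 CPM without and 856, 1021 and 935 CPM with arsenite. All 6 arsenite libraries lay above all 6 libraries without arsenite. The log2 fold changes were 0.91 (SE 0.180, adjusted edgeR p 0.000462) in WT and 0.73 (SE 0.179, adjusted edgeR p 0.00241) in WDM. CNOT1 lies opposite SETD6 over 12.5% of its exon length, and SETD6 had 17273 counts in all against 278969 for CNOT1.

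The helicase DDX6, its partner LSM14A and the exonuclease XRN1 were not called. DDX6 had 176 to 260 CPM without and 225 to 279 CPM with arsenite in WT, and 207 to 273 and 185 to 229 CPM in WDM, overlapping in both lines. Its log2 fold changes were 0.16 (SE 0.183) and -0.27 (SE 0.182). XRN1 had values of 0.24 (SE 0.168) and -0.24 (SE 0.167). LSM14A libraries did not overlap in either line (192 to 213 and 244 to 249 CPM in WT, 213 to 253 and 259 to 297 CPM in WDM), but its log2 fold changes of 0.32 (SE 0.150) and 0.24 (SE 0.150) did not pass the test. A sum of 7 mitochondrial RNAs also moved with arsenite in granules, from 1869 to 4002 CPM without it to 499 to 1299 CPM with it in WT, and from 1105 to 3458 to 909 to 1474 CPM in WDM. Their part in these results was not tested.

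**Figure D2:**
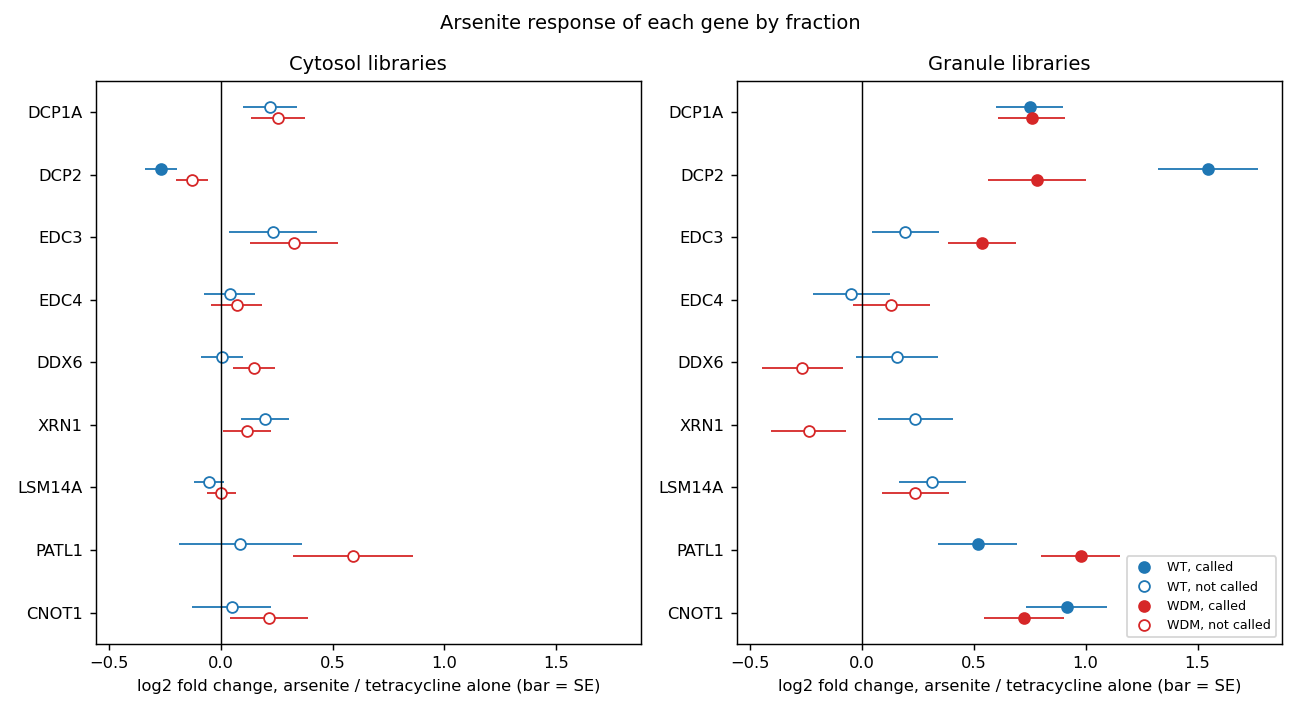
Log2 fold change of each gene with arsenite against tetracycline alone (horizontal axis, bars are standard errors) in cytosol (left) and granule libraries (right), for WT in blue and WDM in red. Filled points passed the test. In granules DCP1A, DCP2, PATL1 and CNOT1 are filled in both lines, with DCP2 in WT farthest at 1.55, and in cytosol the only filled point is DCP2 in WT at -0.27.

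In cytosol with arsenite DCP2 fell in WT, and no other gene of the 9 was called in either line, against 29.0% of 16670 genes in WT and 28.8% in WDM. At an unadjusted p under 0.05 there were 1 of the 9 in WT and 2 in WDM, against 41.8% and 41.3% of all genes, and DESeq2 called 1 and 0. DCP2 went from 296, 310 and 299 CPM to 266, 267 and 292 CPM in WT cytosol. The groups did not overlap, and the log2 fold change was -0.27 (SE 0.071, adjusted edgeR p 0.00909). The call was lost without replicate 2 of either group (adjusted p up to 0.0569), and also with library size as the only scaling, without a count filter and with only the groups compared (adjusted p up to 0.112). In WDM the level was 329, 329.9 and 346 CPM without and 333, 319 and 329 CPM with arsenite (log2 -0.13, SE 0.071), and the groups overlapped.

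This count rested on the pair of tetracycline libraries numbered 1. CNOT1 had 463, 257 and 289.9 CPM in WT cytosol with tetracycline and 427, 362 and 351 CPM with arsenite. In WDM it had 509, 298 and 409 CPM with tetracycline and 547, 497 and 458 CPM with arsenite. The library numbered 1 was the highest of its tetracycline group in each line. Leaving both out, a step chosen after their CNOT1 values were seen, 6 of the 9 were called in WT and 5 in WDM, while 44.2% and 39.6% of all genes were called. Those in WT were DCP1A (log2 0.30), EDC3 (0.53), XRN1 (0.27), PATL1 (0.54) and CNOT1 (0.31), all higher, and DCP2 (-0.31). Those in WDM were DCP1A (0.37), EDC3 (0.48), DDX6 (0.27), PATL1 (0.82) and CNOT1 (0.42), all higher. Each tetracycline group then had 2 libraries, and that of WDM kept number 2, the library that stood apart in that group. PATL1 in WDM was also called without arsenite replicate 3 (0.77).

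**Figure D3:**
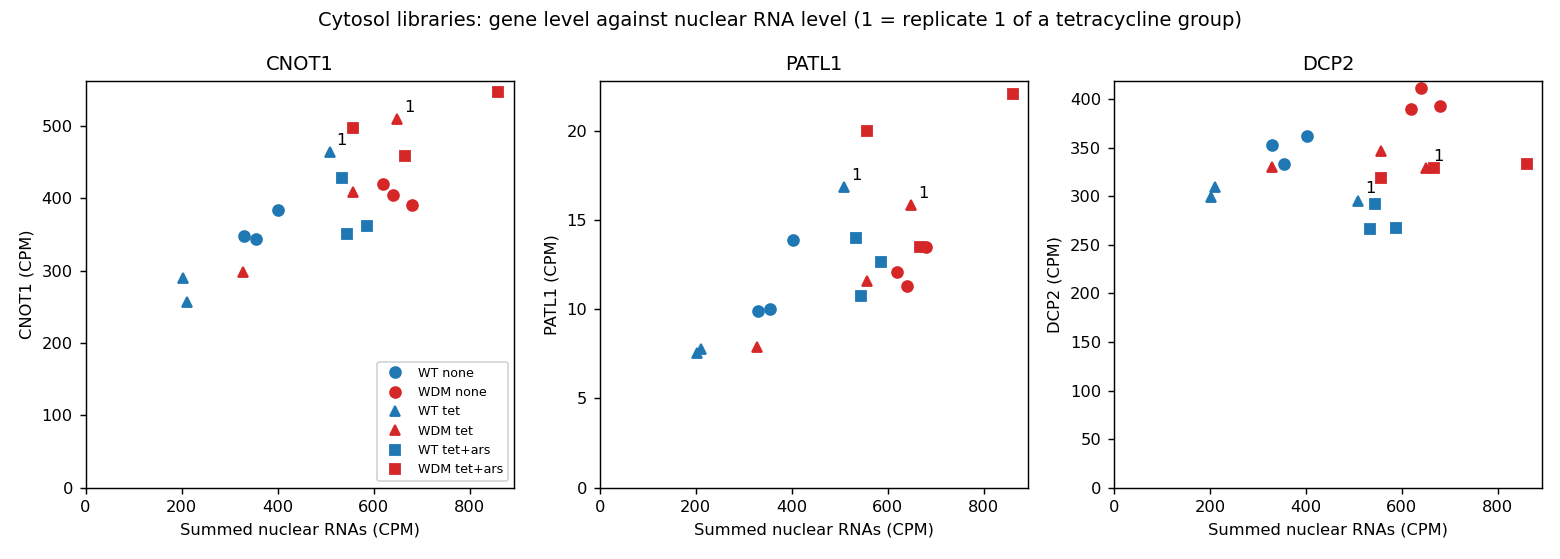
Level of CNOT1, PATL1 and DCP2 in CPM (vertical axes, from 0) against the summed level of NEAT1, MALAT1 and KCNQ1OT1 in CPM (horizontal axes, from 0) in the 18 cytosol libraries; the digit 1 marks the tetracycline libraries of that replicate number. The marked libraries have more CNOT1 (463 and 509 CPM) and more nuclear RNA (508 and 649 CPM) than the others of their groups, while for DCP2 the marked WT library is the lowest of its group at 296 CPM.

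Whether arsenite acted differently in granules and in cytosol was tested as an interaction over the 24 libraries of tetracycline-treated cells. DCP2 and CNOT1 were called in WT, where 31.4% of 18141 genes were called, and DCP2 in WDM, where 24.2% were. For DCP2 the granule response exceeded the cytosol response by 1.71 on the log2 scale in WT (SE 0.261, adjusted edgeR p 3.05e-05) and by 0.82 in WDM (SE 0.259, adjusted edgeR p 0.0204). In WT the fold change was below 0 in cytosol and above 0 in granules. The WT value ranged from 1.42 to 2.02 over fits that left out a library and was called in all 12. The WDM value was not called without replicate 3 of the arsenite granules (adjusted p 0.0503). For CNOT1 in WT the excess was 0.76 (SE 0.274, adjusted edgeR p 0.0340). That call was lost in 7 of the 12 fits that left out a library, those without tetracycline cytosol replicate 1, arsenite cytosol replicate 2 or 3, or replicate 1 or 3 of either granule group, and without both tetracycline cytosol libraries numbered 1 the excess was 0.50 (adjusted p 0.113). The median of this interaction over all genes was -0.21 in WT and -0.17 in WDM. For most transcripts the change with arsenite was thus lower in granules than in cytosol. DCP1A had an excess of 0.43 in WT (SE 0.193) and 0.42 in WDM (SE 0.193), neither called. The WDM value of DCP1A was called without tetracycline cytosol replicate 2 (0.58) or arsenite granule replicate 1 (0.54), and that of DDX6 without tetracycline granule replicate 1 (-0.65, against -0.50 over all libraries).

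The granule fraction was next compared with cytosol of the same line and treatment. With tetracycline alone, DCP1A, EDC3, XRN1 and PATL1 were higher in granules in both lines, CNOT1 was higher in WT, and LSM14A was lower in both. With arsenite, DCP1A, DCP2, EDC3, XRN1, PATL1 and CNOT1 were higher in both lines, EDC4 and LSM14A were lower in WT, and DDX6 was lower in WDM. Most genes differ between these fractions: with tetracycline 75.7% of 18141 genes passed the test in WT, 39.5% as higher and 36.2% as lower, and 71.1% in WDM, 35.8% and 35.3%. With arsenite 70.5% passed in WT, 35.0% as higher and 35.5% as lower, and 72.0% in WDM, 36.3% and 35.7%. The 6, 5, 8 and 7 calls among the 9 are therefore close to what the whole table shows. The median log2 fold change of the 9 was 0.70, 0.42, 1.16 and 0.75 in these 4 comparisons, and that over all genes was 0.07, 0.02, 0.05 and 0.06.

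Within the decapping enzyme the subunits differed. DCP1A had 48.6, 39.2 and 38.0 CPM in cytosol and 82.6, 76.0 and 69.2 CPM in granules of tetracycline-treated WT cells. DCP2 had 296, 310 and 299 CPM in cytosol and 406, 245 and 207 CPM in granules of the same cells. DCP1A was higher in every granule library, while the fractions overlapped for DCP2, and the log2 fold changes were 0.81 (SE 0.139, adjusted edgeR p 5.62e-06) and -0.13 (SE 0.184). DCP2 reached -0.44 and was called lower without WT granule replicate 1 (adjusted p 0.0283). With arsenite DCP1A was at 1.24 in WT (SE 0.137) and 1.09 in WDM (SE 0.136), and DCP2 at 1.58 (SE 0.187) and 1.03 (SE 0.185). For DCP2 in WDM that was 319 to 333 CPM in cytosol and 653 to 729 CPM in granules, again without overlap.

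The scaffolds also differed among themselves. EDC3 was higher in granules by log2 0.97 (SE 0.183) in WT and 0.62 (SE 0.183) in WDM with tetracycline, and by 0.83 (SE 0.180) and 0.75 (SE 0.179) with arsenite. EDC4 ranged from -0.37 to -0.16 over the 4 comparisons. It was called only in WT with arsenite, at 97.1, 93.2 and 99.6 CPM in cytosol and 56.2, 79.6 and 89.3 CPM in granules (SE 0.160, adjusted edgeR p 0.0417), and 4 of 6 fits that left out a library lost the call. Without granule replicate 1 the value was -0.23 (adjusted edgeR p 0.232), and the call was also lost without cytosol replicate 1 or 3 or granule replicate 2. PATL1 was higher by 0.98 (SE 0.244) in WT and 0.54 (SE 0.246) in WDM with tetracycline, and by 1.30 (SE 0.237) and 0.85 (SE 0.228) with arsenite. Its call in WDM with tetracycline (adjusted edgeR p 0.0498) was lost in 5 of 6 such fits, all but that without cytosol replicate 1, with adjusted p up to 0.279.

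XRN1 was higher in granules in all 4 comparisons. It had 84.3, 71.1 and 64.6 CPM in cytosol and 203, 168 and 159 CPM in granules of tetracycline-treated WT cells, where the log2 fold change was 1.23 (SE 0.149, adjusted edgeR p 1.94e-08). In WDM it was 1.17 (SE 0.149), and with arsenite 1.16 (SE 0.148) in WT and 0.73 (SE 0.147) in WDM. CNOT1 was higher by 0.70 (SE 0.194) in WT with tetracycline, and by 1.46 (SE 0.197) and 0.85 (SE 0.194) with arsenite. In WDM with tetracycline its value was 0.42 (SE 0.194, adjusted edgeR p 0.0551). It was called under other scaling factors, without a count filter, with the replicate block and by DESeq2, and it became -0.20 with transcript length removed. It was 0.61 without both cytosol libraries numbered 1 (adjusted p 0.00445) and 0.54 without granule replicate 1 (adjusted p 0.0198).

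LSM14A was the transcript most often lower in granules. It had 289.7, 277 and 276 CPM in cytosol and 213, 192 and 197 CPM in granules of tetracycline-treated WT cells, without overlap (log2 -0.53, SE 0.117, adjusted edgeR p 0.000207). In WDM with tetracycline it was -0.37 (SE 0.117, adjusted edgeR p 0.00665). With arsenite it was -0.27 in WT (SE 0.117, adjusted edgeR p 0.0438), a call lost in all fits that left out a library but that without granule replicate 1 (adjusted p up to 0.131), and -0.22 in WDM, not called. DDX6 had values between -0.10 and -0.05 in 3 comparisons. It was lower in WDM with arsenite, at 313, 305 and 275 CPM in cytosol and 185, 221 and 229 CPM in granules (log2 -0.55, SE 0.164, adjusted edgeR p 0.00369).

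Longer transcripts were more enriched across the whole table, with Spearman's rho between longest transcript and granule enrichment of 0.22 to 0.35 over the 4 comparisons (18092 genes, which are not independent). When each library's trend with transcript length was removed, calls changed for 6 of the 9. DCP2 in granules with tetracycline became lower in both lines, at -1.08 in WT and -0.63 in WDM (adjusted edgeR p 4.64e-06 and 0.00278). CNOT1 in WT with tetracycline went from 0.70 to -0.0048, and XRN1 in WDM with arsenite from 0.73 to -0.092, neither called. The calls of DCP2 (0.20) and CNOT1 (0.18) in WDM with arsenite and of XRN1 (0.15) in WT with arsenite were also lost, as was that of LSM14A in WT with arsenite (-0.19, adjusted edgeR p 0.128). EDC4 became called as lower in WT with tetracycline (-0.39) and in WDM with arsenite (-0.44). DCP1A, EDC3 and PATL1 kept their calls in all 4 comparisons, and DDX6 was called lower in all 4, at -0.46, -0.37, -0.53 and -0.94. In WT with arsenite DCP2 (0.57) and CNOT1 (0.63) remained called.

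**Figure D4:**
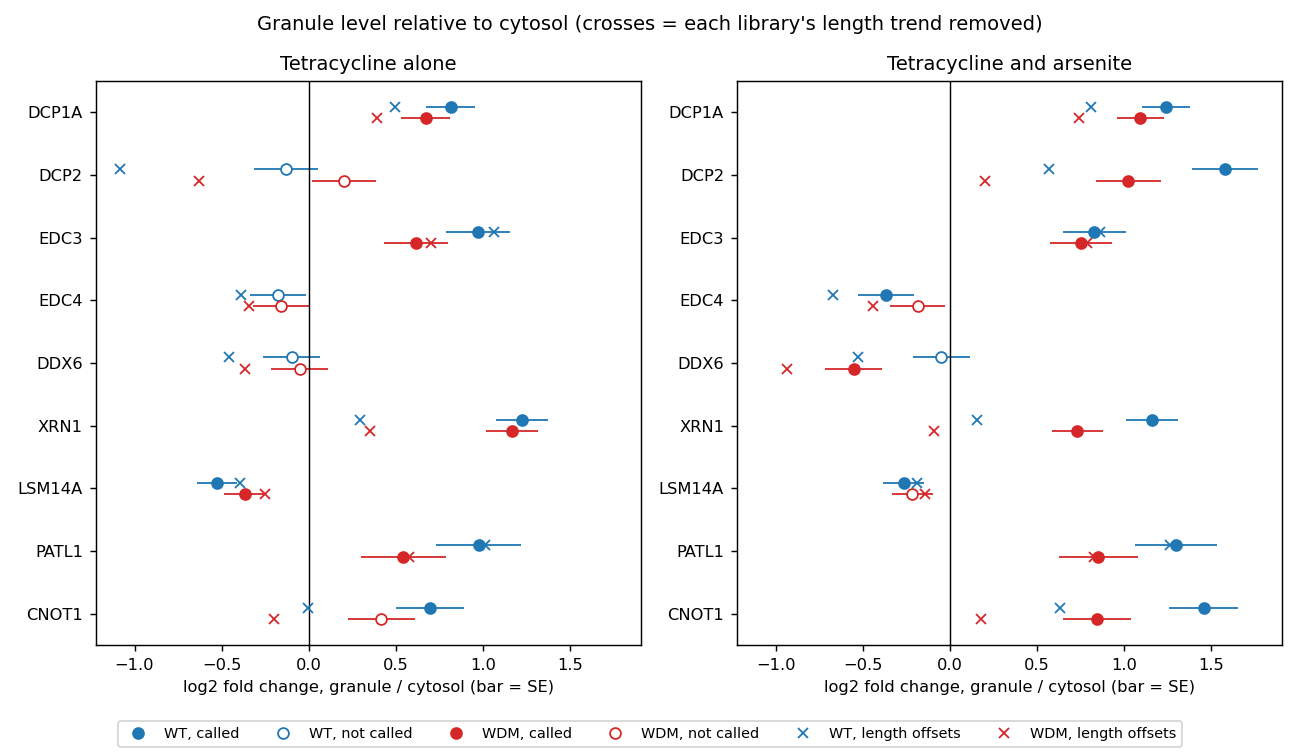
Log2 fold change of granule over cytosol for each gene (horizontal axis, bars are standard errors) with tetracycline alone (left) and with arsenite (right), WT in blue and WDM in red. Filled circles passed the test, open circles did not, and crosses are the values after each library's trend with transcript length was removed. Crosses lie near the circles for EDC3, PATL1 and LSM14A and far to the left for DCP2, XRN1 and CNOT1.

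Over the 9 genes, granule enrichment was set beside U content. Spearman's rho between the granule over cytosol log2 fold change and the number of U runs per kb of 3′ UTR was between -0.63 and -0.43 in the 4 comparisons (n = 9, a description, since the genes share the same libraries). With the U share of the 3′ UTR rho was between -0.08 and 0.17, and with canonical transcript length between 0.17 and 0.58.

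The lines were compared within each fraction and treatment. In untreated cytosol and with tetracycline none of the 9 was called between WDM and WT, and with arsenite DCP2 was higher in WDM. Of 16670 genes, 9.78%, 12.6% and 10.4% were called in these 3 comparisons. Without a call by edgeR, 2 of the 9 had an unadjusted p under 0.05 in untreated cytosol and 2 with tetracycline. Of all genes 23.9% and 26.9% did, and DESeq2 called 1 and 0 of the 9. The count for untreated cytosol depended on which libraries shared the fit: with those 2 groups alone 6 of the 9 were called (DCP2, EDC3, XRN1, LSM14A and CNOT1 higher in WDM, EDC4 lower), against 36.0% of all genes in that fit. DCP2 under arsenite had 333, 319 and 329 CPM in WDM and 266, 267 and 292 CPM in WT, without overlap. The log2 fold change was 0.24 (SE 0.071, adjusted edgeR p 0.0333), and 5 of 6 fits that left out a library, all but that without WT replicate 3, lost the call (adjusted p up to 0.161), as did the fits without a count filter and with only the groups compared. DCP2 was also the higher in WDM in untreated cytosol, at 389, 393 and 411 CPM against 362, 352 and 333 CPM (log2 0.15, SE 0.071), which was not called.

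LSM14A had the lowest adjusted p of the 9 between untreated lines. It had 272, 281 and 281 CPM in untreated WDM cytosol and 243, 238 and 235 CPM in WT, without overlap (log2 0.18, SE 0.065, adjusted edgeR p 0.0819), and it was called by DESeq2 and with library size as the only scaling. EDC4 had log2 fold changes of -0.23, -0.25 and -0.22 in the 3 cytosol comparisons (SE 0.114 to 0.117), none called. The value with arsenite was -0.42 and called without WDM replicate 2 (adjusted p 0.00519), which at 101 CPM stood above the other replicates of its group at 74.0 and 73.4 CPM. With tetracycline XRN1 (0.27 over all libraries) was called without WT replicate 1 (0.35) or WDM replicate 2 (0.36), and CNOT1 (0.22) without WT replicate 1 (0.48). PATL1 and CNOT1 with arsenite had values of 0.57 (SE 0.263) and 0.39 (SE 0.176), not called.

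In granules no gene of the 9 was called between the lines, with tetracycline (5.55% of 18366 genes called) or with arsenite (7.95%). None had an unadjusted p under 0.05, against 17.2% and 24.2% of all genes, and DESeq2 called none. Log2 fold changes ran from -0.35 for PATL1 to 0.43 for DCP2 with tetracycline, and from -0.33 for DCP2 to 0.12 for EDC3 with arsenite. Without WT granule replicate 1, DCP2 was called higher in WDM with tetracycline (log2 0.76, adjusted p 0.0450). Standard errors of these values lay between 0.148 and 0.219, so differences of this size were not detectable here. The interactions of line with fraction called none of the 9, and 0.00551% of 18141 genes, in either treatment. With arsenite 4 of the 9 had an unadjusted p under 0.05 there, against 6.61% of all genes, and DESeq2 called none. These had interaction values of -0.61 (SE 0.273) for CNOT1, -0.55 (SE 0.259) for DCP2, -0.50 (SE 0.231) for DDX6 and -0.43 (SE 0.207) for XRN1, none of which passed the test.

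EDC3, which was not called between the lines, had values of 0.12 to 0.24 in the 3 cytosol comparisons. Of the 40 tested genes nearest to it on chromosome 15, 8, 8 and 10 were called higher in WDM in untreated, tetracycline and arsenite cytosol, with medians of 0.16 to 0.19. Of all genes, 4.19%, 5.8% and 4.98% were called higher there. The 40 neighbours of XRN1 had 7, 5 and 4 called higher and 2, 1 and 2 lower in the same comparisons, with medians of 0.08 to 0.09. XRN1 itself had values of 0.18, 0.27 and 0.19, none called. The neighbours of EDC4 had medians of 0.01 to 0.09 in cytosol while EDC4 itself had negative values that were not called, and those of CNOT1 had medians of -0.06 to -0.02.

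Tetracycline, tested against untreated cytosol, raised LSM14A in WT and changed none of the 9 in WDM. Of all genes, 5.31% were called in WT and 6.3% in WDM. In WDM, 2 of the 9 had an unadjusted p under 0.05, as had 21.2% of all genes, and DESeq2 called 1, DCP2. LSM14A went from 243, 238 and 235 CPM to 289.7, 277 and 276 CPM in WT, without overlap (log2 0.28, SE 0.065, adjusted edgeR p 0.0207). The call was lost in 5 of 6 fits that left out a library, all but that without tetracycline replicate 1, with adjusted p up to 0.0820, and also without a count filter and with only the groups compared. In WDM it went from 272, 281 and 281 CPM to 286, 296 and 307 CPM (log2 0.12, SE 0.065). DCP2 was lower with tetracycline in both lines without a call, at -0.17 (SE 0.071) and -0.22 (SE 0.071), and EDC4 was higher without a call, at 0.30 (SE 0.116) and 0.28 (SE 0.117). The interactions of line with tetracycline and with arsenite in cytosol called none of the 9, with 0.018% and 0.0% of all genes called. None of the 9 had an unadjusted p under 0.05, against 4.49% and 1.99% of all genes, and DESeq2 called none.

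The wider pathway was read from 6 lists of 72 other decay genes, of which 70 were tested. In WT granules with arsenite against cytosol, the decapping and LSM ring genes were lower in 10 of 14 cases and higher in 0, with a median log2 fold change of -1.18. LSM7 and LSM4, subunits of the ring that binds deadenylated ends, were at -2.89 and -2.40. The exosome and SKI list, which holds the 3′ to 5′ decay machinery and the nuclear 5′ exonuclease XRN2, was lower in 13 of 16 cases and higher in 1 (median -0.97), with EXOSC8 at -2.45. The small-RNA silencing genes were higher in 7 of 8 cases and lower in 1 (median 1.47), led by AGO2 at 2.11 and TNRC6B at 1.87. Deadenylation genes split, 9 higher and 4 lower of 17 (median 0.35), from CNOT7 at -1.79, a catalytic subunit of the CNOT1 complex, to CNOT6 at 1.31. Nonsense-mediated decay genes were 5 higher and 3 lower of 9 (median 0.39), with SMG1 at 2.19, and translational repression genes 4 higher and 1 lower of 6 (median 0.53). In WDM the counts were 0 higher and 9 lower, 1 and 14, 7 and 1, 6 and 7, 4 and 3, and 4 and 1 for the same lists in that order. Among all genes tested, 35.0% were higher and 35.5% lower in WT, and 36.3% and 35.7% in WDM. Enrichment rose with transcript length over all genes (Spearman's rho 0.35 in WT and 0.28 in WDM). Length was not removed for these lists, so its part in their counts was not tested. The 9 processing-body genes, with 6 higher and 2 lower in WT and a median of 1.16, lay between the small-RNA silencing list and the others.

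**Figure D5:**
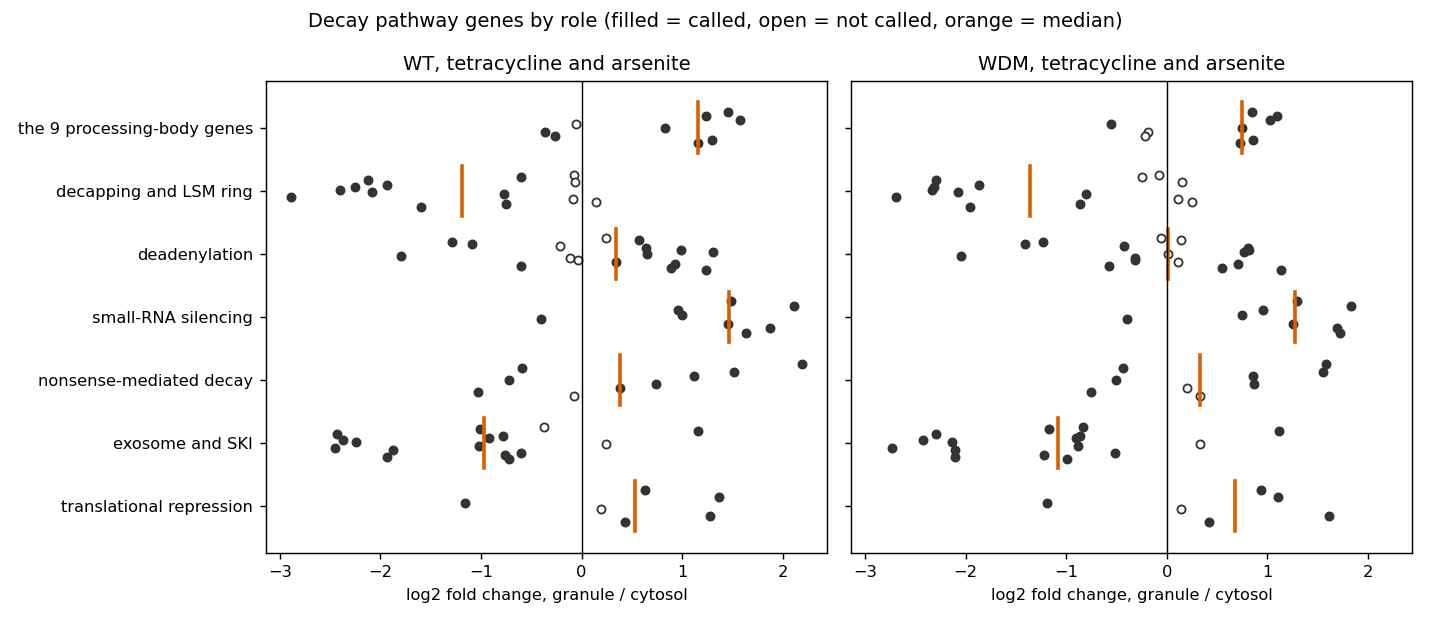
Log2 fold change of granule over cytosol with arsenite (horizontal axis) for the 9 genes and the 6 lists of other decay genes (rows), in WT (left) and WDM (right). Each point is a gene, filled where it passed the test, and the orange bar is the median of its row. The trend with transcript length was not removed. The decapping and LSM ring and the exosome and SKI rows lie mostly below 0 (medians -1.18 and -0.97 in WT), and the small-RNA silencing row mostly above it (median 1.47).

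With arsenite in granules, the lists moved in both directions. In WT 16 of the 70 genes were higher and 17 lower (16.5% and 14.1% of all genes), and in WDM 21 and 23 (18.7% and 17.7% of all genes), where the 9 processing-body genes had 4 and 5 higher and 0 lower. TOB1, which recruits the deadenylase, rose by log2 1.62 (SE 0.212) in WT and 1.64 (SE 0.208) in WDM. BTG2 of the same family rose by 1.36 in WT and TOB2 by 1.59 in WDM. AGO1, which holds small RNAs on their targets, rose by 0.81 in WT and 1.06 in WDM. LSM4 fell by 1.03 and LSM6 by 0.96 in WDM, and EXOSC7 fell by 1.19 in WT. Some list genes were lower in WDM than in WT in both fractions. PARN, a deadenylase of its own, was at log2 -0.69, -0.80 and -0.65 in untreated, tetracycline and arsenite cytosol, and at -0.64 and -0.63 in tetracycline and arsenite granules. CNOT7 was at -0.53, -0.72 and -0.64 in the same cytosols and at -0.91 in arsenite granules. TNRC6A, a partner of the Argonaute proteins, was at -0.43, -0.47 and -0.42 in cytosol and -0.73 and -0.63 in granules. All of these passed the test. In granules SMG1 was lower in WDM by -0.62 with tetracycline and -0.65 with arsenite. Genome neighbours of these list genes were not examined, so whether nearby genes were also lower in WDM was not tested.

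Over the 10 group means of log2 CPM, DCP1A and CNOT1 were the most alike of the 9 (Pearson's r 0.982), and PATL1 and EDC3 were each most like DCP1A (0.976 and 0.960). XRN1 was most like EDC3 (0.900) and DCP2 most like CNOT1 (0.854). DDX6 and LSM14A were most like each other at only 0.492, and EDC4 most like LSM14A at 0.387. Among 11505 other genes with at least 5 CPM, CBL (0.995), ZFYVE9 (0.994), KIAA0232 (0.994), REST (0.994) and ABHD17C (0.994) followed the mean of the 9 most closely. Within the 9, DDX6 (-0.31), LSM14A (-0.17) and EDC4 (-0.10) did not follow that mean, and the others had r of 0.82 to 0.99 with it. These values describe 10 group means, of which 6 are cytosol and 4 granule, so they mostly follow the split between fractions.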

How the data were processed

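Total RNA of 18 cytosol and 12 granule libraries was sequenced after stranded library preparation with ribosomal RNA removed, per the labels. The deposited values are raw counts per gene, which the authors made with Trimmomatic, STAR, Picard and featureCounts on GRCh38, per the submitters' processing notes. Versions and the settings for strand, multiply mapped and overlapping reads are not given in the sources used here. Of 60664 gene IDs, 60463 were found in GENCODE release 44.

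Counts were tested with edgeR 4.0.16 (TMM factors, filterByExpr with a minimum count of 10, robust quasi-likelihood fit) in R 4.3.3. Cytosol groups were fitted together, granule groups together, and the 24 libraries of tetracycline-treated cells together where fractions were compared, giving 22 comparisons over 16670, 18366 or 18141 genes, each adjusted by Benjamini-Hochberg at 0.05. CPM values use the library total. The standard error is the fold change divided by the root of F. The member genes, the pathway lists and the tests were chosen with earlier results of these data known. The text names the 9 genes everywhere and, of each pathway list, genes among its 2 largest called changes. Genes most like the 9 were ranked by Pearson's r over group means.

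Alternatives were other scaling factors, no filter, only the groups compared, a replicate block, DESeq2 1.42.0, length offsets and leaving out each library. A fit without the cytosol tetracycline libraries numbered 1 was chosen after seeing the data. Deviations of libraries with the same number correlated above 0.1 for all 3 numbers in 2 comparisons, granule arsenite in WDM (0.465, 0.104 and 0.237) and granule against cytosol in WDM with arsenite (0.351, 0.566 and 0.306). A block for the number changed no call among the 9 there. Tested on simulated data, the fit recovered 69.8% of genes changed by 1 on the log2 scale for WT cytosol with arsenite (16670 genes), 56.7% for WT granules with arsenite (18366 genes) and 65.7% for WT granule against cytosol with tetracycline (18141 genes). At 0.5 these shares were 44.4%, 4.08% and 15.8%. Only 95 to 99 genes were changed at each size, and all genes not changed had equal means in every group. The real comparisons called far more genes, so the cut on adjusted p was stricter in the simulation. The shares therefore do not measure recovery in the real data.

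Replicates of every group differed by more than sampling noise (chi-square per degree of freedom 1.63 to 40.73). The floor of 3 counts equals 0.109 to 0.508 CPM, for counting error alone.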

Additional observations from a re-analysis of the deposited data

Results flagged for a closer look

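A test of the difference itself separated the fractions for a pair of genes. For DCP2 the change with arsenite was larger in granules than in cytosol by 1.71 on the log2 scale in WT and by 0.82 in WDM. For CNOT1 it was larger by 0.76 in WT, a call lost in 7 of 12 fits that left out a library and, at 0.50, without the tetracycline cytosol libraries numbered 1 (adjusted edgeR p 0.113). Of all genes, 31.4% were called in WT and 24.2% in WDM. The granule groups that enter these values also differed in summed mitochondrial RNA, and the tetracycline cytosol groups in nuclear RNA. The part of either was not tested.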

How the results depend on the processing

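Of 1103 values for single genes under an alternative, 952 kept their direction and side of the threshold. The sign changed for 22, of which 5 were called in either fit and 17 in neither. Length offsets turned CNOT1 in WT granule against cytosol with tetracycline to -0.0048. With the same offsets DCP2 in WDM with tetracycline was -0.63 (also -0.63 with the replicate block) and XRN1 in WDM with arsenite -0.092 (-0.090 with the block). The number of the 9 genes called changed as follows. DESeq2 called 1 rather than 0 between untreated lines and for tetracycline in WDM. Library size alone called 1 in each of these and 2 rather than 1 for tetracycline in WT. Without a count filter, 0 rather than 1 were called for arsenite and tetracycline in WT cytosol and between arsenite cytosols. With only the groups compared, 6 were called between untreated lines (36.0% of all genes in that fit) and 0 for tetracycline and arsenite in WT cytosol. The replicate block called 1 between tetracycline cytosols, 3 between arsenite cytosols and 1 for arsenite in WDM cytosol, where the numbers do not pair the libraries, and changed no other count by over 1.5 times. Length offsets called 3 rather than 1 for arsenite by fraction in WDM, with or without the block, and with the block 8 rather than 5 for granule against cytosol in WDM with tetracycline. Without the cytosol tetracycline libraries numbered 1, arsenite cytosol had 6 in WT and 5 in WDM, and arsenite by fraction in WT 1 rather than 2. Leaving out 1 library gave 0 to 2 between tetracycline cytosols, 0 to 1 between arsenite cytosols, 0 to 1 for tetracycline in WT, 0 to 2 and 0 to 3 for arsenite cytosol in WT and WDM, 0 to 1 between tetracycline granules, and 1 to 2 and 0 to 2 for arsenite by fraction in WT and WDM. The cause of these changes was not tested, except that fewer libraries or genes entered where some were left out. Library size alone moved the median of all genes in WT arsenite cytosol from -0.02 to 0.11. Arsenite changes near 0.5 in granules held unevenly when a library was left out. PATL1 in WT (0.52) lost its call in 4 of 6 such fits. EDC3 in WDM (0.54) kept its call in all 6, with adjusted edgeR p up to 0.0497.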
